A study of Mus musculus with 56 samples.

Results

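The anterior hypothalamus of day-fed and night-fed mice was compared at ZT20, 8 h into the dark period, where zeitgeber time 0 (ZT0) is lights on. Day time-restricted feeding (DRF) gave access to chow from ZT0 to ZT12, so the 4 DRF mice had been without food for 8 h. Night time-restricted feeding (NRF) gave access from ZT12 to ZT0, so the 4 NRF mice had food at hand. All 8 mice were 9-week-old female C57BL/6J mice under 12 h light and 12 h dark after 7 days on their regimen, and both regimens restrict feeding, so neither group is an unrestricted control. They were chosen by regimen and time alone, from 56 mice of 14 groups of 4, and every mouse was sampled once. PolyA RNA was sequenced, and the values below are counts scaled to a common library size (CPM), normalized between mice by the authors. Differences are DRF minus NRF on the log2(CPM + 1) scale, where 1 stands for a doubling in well-expressed genes, given with the standard error (SE).

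In nocturnal mice ZT20 falls in the active phase, when a night-fed animal eats and a day-fed animal fasts while awake. The anterior hypothalamus holds the suprachiasmatic nucleus, whose clock follows light, beside nuclei that govern body temperature, hormones and energy balance. Feeding state can act there through nutrients, glucocorticoids and body temperature. Heat shock genes follow temperature and the load of unfolded protein, metallothioneins bind zinc and respond to metals and glucocorticoids, and linker histones compact chromatin.

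The normalized library size was such that 1 read was worth 0.0316 to 0.0332 CPM in the 8 mice. Across genes, pairs of DRF mice correlated at 0.988 to 0.997 and pairs of NRF mice at 0.994 to 0.998, and the median SD of a gene was 0.11 in DRF and 0.07 in NRF on the log2 scale. DRF replicate 2 stood furthest from its group. Its median absolute deviation from its group mates was 0.137, against 0.0689 to 0.103 in the other DRF mice and 0.061 to 0.0708 in NRF. The same mouse had the highest summed level of 6 striatal markers, 385 CPM, against 164, 222 and 175 CPM in the other DRF mice and 151 to 156 CPM in NRF. Its 7 markers of the tuberal hypothalamus summed to 127 CPM, against 649 to 1055 CPM in DRF and 409 to 817 CPM in NRF. NRF replicate 4 had the highest level of 8 pericyte and meningeal markers, 370 CPM against 184 to 207 CPM in the other 7 mice, with the fibroblast gene Dcn at 44.6 CPM in this mouse and at 8.3 to 10.7 CPM in the rest. Markers of the anterior hypothalamus were present in all 8 mice, at 324 to 685 CPM in DRF and 385 to 604 CPM in NRF. Beside the genes named below it is said which calls of the wider fit were lost when a single mouse was left out.

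**Figure D1:**
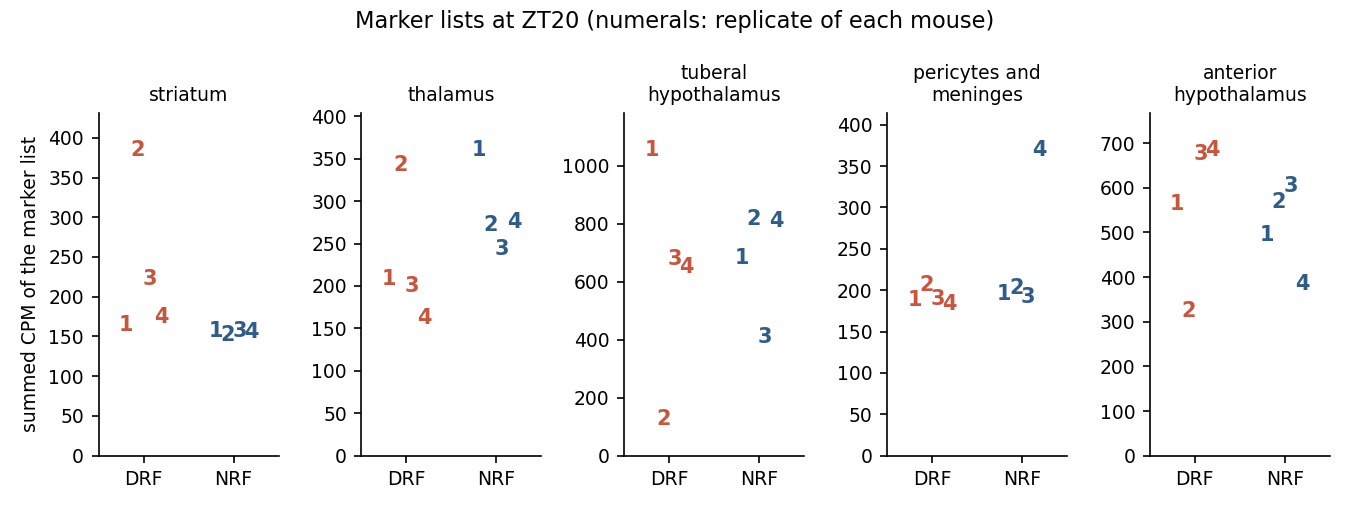
Summed CPM of 5 marker lists at ZT20 in each mouse, with the numeral giving the replicate, DRF on the left and NRF on the right of each panel. DRF replicate 2 is highest for striatum (385) and lowest for tuberal hypothalamus (127), and NRF replicate 4 is highest for pericytes and meninges (370).

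Of 14786 genes tested, 7 differed between DRF and NRF at an adjusted p-value under 0.05 when the 8 mice alone set the spread, which is 0.0473% of the genes. Of these, 3 were higher in DRF (0.0203%), Mt2 and Gdf1 among them, and the 4 genes Fndc3c1, Scn7a, Ahsa2 and P4ha2 were lower (0.0271%). In a second fit all 56 mice set the spread between mice of a group, and 185 genes differed, or 1.25% of those tested, 88 higher (0.595%) and 97 lower (0.656%) in DRF. This second fit takes 1 spread per gene as common to all 14 groups, although the spread differed between groups (median SD at ZT20 0.11 in DRF and 0.07 in NRF). Its p-values rest on that assumption, and without the 8 mice of ZT16 in the shared spread it called 353 genes. Both fits called 4 genes in common, Mt2, Ahsa2 and P4ha2 among them. The differences were small: the median size among the 185 was 0.29, and 18 of the 185 reached 0.5. The largest was that of the predicted gene Gm14296, at 9.78, 12.8, 14 and 4.13 CPM in DRF and 0, 5.83, 0.000633 and 0.0853 CPM in NRF (2.65, adjusted p = 0.04995 in the wider fit), with overlapping groups. The 4 DRF and 4 NRF values did not overlap for 163 of the 185 and for 1269 genes in all (8.58%), with DRF above in 4.02% and below in 4.56% of genes. The median difference over all genes was 0.00 (-0.0048), and 48.2% of genes lay above 0. With the 8 mice alone, 2014 genes had an unadjusted p-value under 0.05. Without DRF replicate 2 that fit called 332 genes, 130 higher and 202 lower, while the fit on all mice called 193 in place of 185. Below, a gene is said to be called in the wider fit where its adjusted p-value was under 0.05 with the spread of 56 mice. Genes other than the 7 and the clock genes were singled out for naming after their values were seen.

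Both metallothioneins Mt2 and Mt1, small proteins that bind zinc and copper, were higher in DRF. Mt2 was called in both fits and Mt1 in the wider fit. Mt2 stood at 151, 178, 196 and 118 CPM in the 4 DRF mice and at 65.5, 72.1, 59.8 and 68.3 CPM in the 4 NRF mice. All DRF mice were above all NRF mice, and the DRF mean was 2.42 times the NRF mean. The difference was 1.24 (SE 0.13, limma adjusted p = 0.00958, and 3.97e-09 in the wider fit). The call with the 8 mice was lost without NRF replicate 1 or 3, and the wider fit called Mt2 whichever mouse was left out. Mt1, its neighbour on chromosome 8, stood at 271, 300, 321 and 208 CPM in DRF and at 167, 194, 146 and 168 CPM in NRF. Its groups did not overlap either, and its difference of 0.69 (SE 0.13) was called in the wider fit (adjusted p = 0.000552) and not with the 8 mice (adjusted p = 0.089). Of the other 6 genes of zinc handling tested, among them the brain metallothionein Mt3 (0.10) and the zinc exporter Slc30a1 (0.19), none was called in either fit. The list of 8 had a median of 0.13, and its 2 called members were both metallothioneins. Of all genes, 0.595% were called higher in the wider fit and 0.0203% with the 8 mice. The promoters of Mt2 (chr8:94172368-94172667) and Mt1 (chr8:94178839-94179138) are shown because these genes carry the metal response element, the site of the zinc sensor MTF1. The sequences are from RefSeq (GRCm38.p6, both on the plus strand, 250 bases before to 50 bases after the annotated start), with matches to TGCGCNC or TGCACNC on either strand in capitals.
Mt2: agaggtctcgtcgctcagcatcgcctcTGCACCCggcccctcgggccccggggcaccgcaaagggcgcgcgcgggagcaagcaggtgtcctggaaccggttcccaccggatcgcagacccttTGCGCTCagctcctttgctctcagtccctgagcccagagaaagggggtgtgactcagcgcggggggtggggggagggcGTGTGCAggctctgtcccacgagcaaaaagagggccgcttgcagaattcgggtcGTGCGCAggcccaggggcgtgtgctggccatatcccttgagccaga
Mt1: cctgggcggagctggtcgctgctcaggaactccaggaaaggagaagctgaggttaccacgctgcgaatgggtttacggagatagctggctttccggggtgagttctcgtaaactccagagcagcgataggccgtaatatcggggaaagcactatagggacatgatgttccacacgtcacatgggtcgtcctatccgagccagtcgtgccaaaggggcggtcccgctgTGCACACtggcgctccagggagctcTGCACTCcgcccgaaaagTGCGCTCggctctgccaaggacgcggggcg
Mt2 holds 4 matches and Mt1 holds 3. Of 32851 promoters of this length, 25.7% held at least 1 match and 1.97% held 3 or more. Mtf1 itself was at a mean of 34.4 CPM in DRF and 35.1 CPM in NRF.

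Single genes of RNA processing were called higher in DRF in the wider fit, and others, such as Prpf3 (-0.21) and Cdc5l (-0.17), were called lower. Ewsr1, an RNA-binding protein that acts in transcription and splicing, stood at 221, 230, 233 and 230 CPM in DRF and at 200, 194, 195 and 198 CPM in NRF. Its difference of 0.22 was called in the wider fit (adjusted p = 4.95e-05) and not with the 8 mice (adjusted p = 0.0802). Of 47 splicing factors tested, 2 were called in the wider fit, both higher in DRF (against 0.595% of all genes), and 0 with the 8 mice. These were Srsf5, a serine- and arginine-rich factor (251 ± 11.3 CPM against 207 ± 12.5 CPM, mean ± SD, n = 4 each, difference 0.28), and Pspc1, a paraspeckle protein (49.8 ± 1.64 CPM against 42.1 ± 0.928 CPM, difference 0.24). Both calls were lost without NRF replicate 1, and that of Srsf5 also without DRF replicate 2 or 3 or NRF replicate 2 (adjusted p up to 0.0963). The median of the 47 was -0.05, and 15 lay above 0, so most of the list lay on the other side. Without overlap between the groups, 7 of the 47 were lower and 2 higher in DRF, against 4.56% and 4.02% of all genes. The cold-induced RNA-binding proteins were not called in either fit: Cirbp stood at 75.2, 53.8, 66.4 and 68.0 CPM in DRF and 48.6, 51.0, 48.4 and 53.2 CPM in NRF, without overlap, whereas Rbm3 was lower on average (difference -0.26) with overlapping groups.

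Of 4 linker histones tested, 2 were higher in DRF in the wider fit (0.595% of all genes) and 0 with the 8 mice. H1f0, the variant of resting cells, stood at 97.7, 108, 103 and 90.1 CPM in DRF and at 78.4, 81.0, 76.3 and 78.0 CPM in NRF. H1f2 stood at 8.65, 12.8, 9.75 and 7.54 CPM in DRF and at 5.32, 5.69, 4.78 and 6.85 CPM in NRF. Neither pair of groups overlapped, and the differences of 0.34 and 0.67 were called in the wider fit (adjusted p = 0.00129 and 0.0026) but not with the 8 mice (adjusted p = 0.0802 and 0.118). The 2 other members tested, H1f4 and H1f10, had differences of 0.24 and 0.08 and were not called. With trends in gene length, GC content and expression removed, 3 of the 4 lay above 0 and 1 below. The calls of H1f0 and H1f2 held without any single mouse. These polyA libraries capture histone messages with a polyA tail, and H1f2, a replication-linked gene, is measured here only as far as its message has one.

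**Figure D2:**
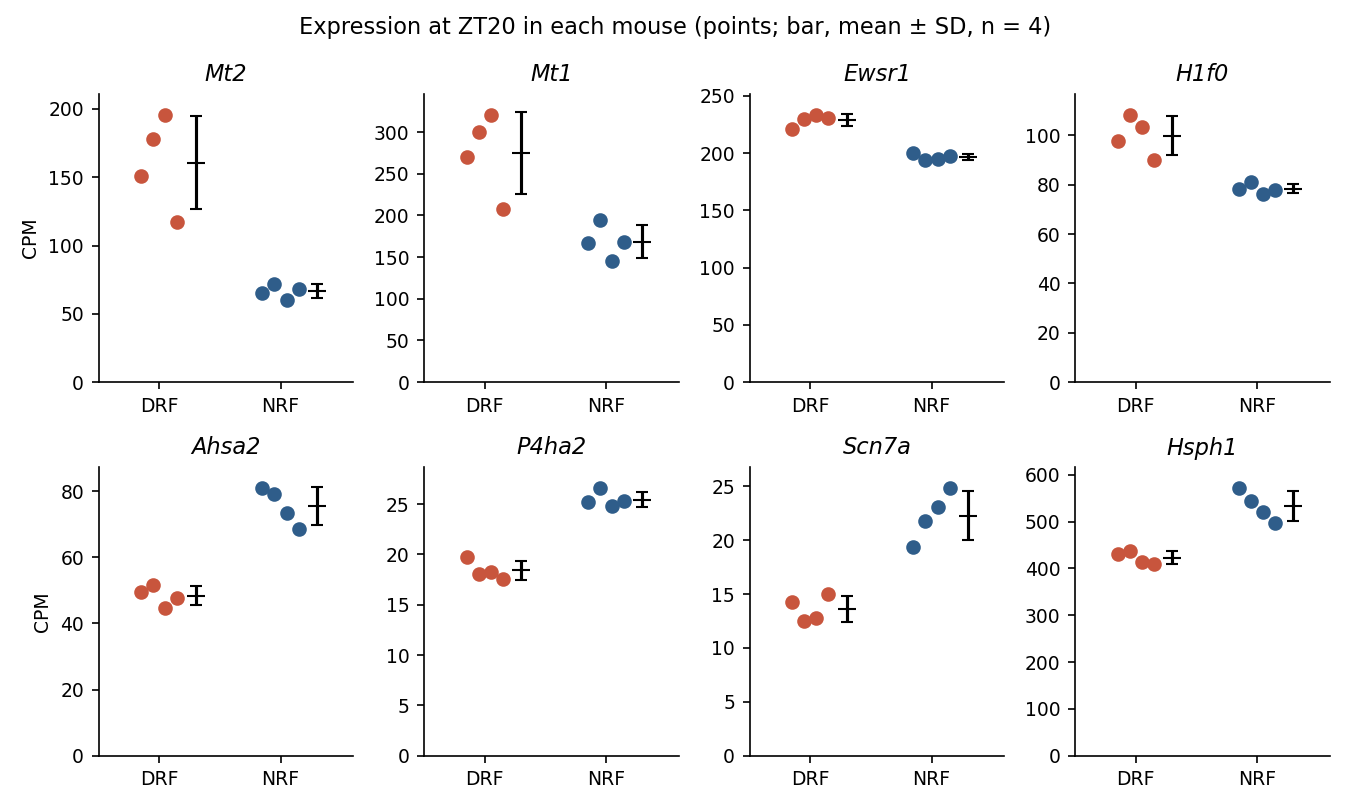
CPM of 8 genes at ZT20 in each of the 4 DRF and 4 NRF mice (points), with the mean ± SD beside them. Mt2, Mt1, Ewsr1 and H1f0 are higher in every DRF mouse than in any NRF mouse, and Ahsa2, P4ha2, Scn7a and Hsph1 are lower in every DRF mouse.

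Genes of protein folding lay lower in DRF. Of 20 heat shock and HSP90 genes listed, 19 were tested. All 19 had a difference below 0, their median was -0.26 against -0.0048 for all genes, and 13 had no overlap between the groups, against 4.56% of all genes lower without overlap. With the 8 mice 0 of the 19 were called. In the wider fit 5 were called, all lower, against 0.656% of all genes: Hsph1, Dnajb1, Ahsa1, Fkbp4 and Stip1. Hsph1, the large HSP110 partner of HSP70, stood at 430, 438, 413 and 409 CPM in DRF and at 571, 544, 521 and 497 CPM in NRF (difference -0.33, SE 0.05, adjusted p = 0.00898 in the wider fit). The DRF mean was 0.793 of the NRF mean, and no DRF mouse reached the lowest NRF mouse. Stip1, which joins HSP70 to HSP90, stood at 405, 358, 371 and 380 CPM in DRF and at 463, 473, 449 and 440 CPM in NRF (difference -0.27). Dnajb1, an HSP40 that directs HSP70 to its clients, had a mean of 73.6 ± 4.57 CPM in DRF and 95.03 ± 10.6 CPM in NRF. Ahsa1, which activates the HSP90 ATPase, and Fkbp4, a co-chaperone of steroid receptors, had differences of -0.23 and -0.26.

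Ahsa2, a relative of Ahsa1 on chromosome 11, was called in both fits. It stood at 49.6, 51.5, 44.8 and 47.7 CPM in DRF and at 80.9, 79.3, 73.4 and 68.7 CPM in NRF, and the groups did not overlap (difference -0.63, SE 0.06, limma adjusted p = 0.00697, and 0.000739 in the wider fit). The length used to recover CPM came from the annotation for Ahsa2, and also for Cers1, Cacna1d, Hspa8, Hsp90aa1, Nr1d1 and Dbp below, so their CPM and the size of their differences are approximate. The inducible HSP70 genes Hspa1a and Hspa1b, nearly identical copies whose reads can be divided between them, had differences of -0.47 and -0.57 and were not called in either fit. Chordc1, an HSP90 co-chaperone, stood at 71.4, 102, 81.9 and 77.9 CPM in DRF and at 115, 126, 119 and 109 CPM in NRF, and was not called (adjusted p = 0.086 in the wider fit). The abundant constitutive members Hspa8 and Hsp90aa1 had differences of -0.15 and -0.18 and were not called. The promoters of Hsph1 (chr5:149636266-149636565, minus strand) and Chordc1 (chr9:18292017-18292316, plus strand) are shown with matches to GAANNTTC, the paired unit bound by heat shock factors, in capitals (RefSeq, GRCm38.p6).
Hsph1: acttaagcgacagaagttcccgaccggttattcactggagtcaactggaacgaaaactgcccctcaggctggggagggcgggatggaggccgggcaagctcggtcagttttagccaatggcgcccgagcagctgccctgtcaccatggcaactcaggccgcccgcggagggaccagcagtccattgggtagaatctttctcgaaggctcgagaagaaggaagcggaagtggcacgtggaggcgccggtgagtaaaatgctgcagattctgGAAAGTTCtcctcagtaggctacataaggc
Chordc1: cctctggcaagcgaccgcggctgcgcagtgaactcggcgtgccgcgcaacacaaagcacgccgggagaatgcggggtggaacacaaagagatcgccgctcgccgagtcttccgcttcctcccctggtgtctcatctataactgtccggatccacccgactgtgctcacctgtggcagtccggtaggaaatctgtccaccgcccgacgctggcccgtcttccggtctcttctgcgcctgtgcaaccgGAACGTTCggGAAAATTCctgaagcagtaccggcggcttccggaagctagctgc
Chordc1 holds 2 matches and Hsph1 holds 1. At least 1 match was found in 7.86% of all promoters and 2 or more in 0.344%. Of the other 4 members called in the wider fit, Fkbp4 holds 1 match and Dnajb1, Ahsa1 and Stip1 hold 0 in this window. Ahsa2, called in both fits, and the collagen chaperone gene Serpinh1 hold 0 as well.

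Chaperones of the endoplasmic reticulum showed the same direction. All 18 tested had a difference below 0, their median was -0.19, and 11 had no overlap between the groups, against 4.56% of all genes lower without overlap. With the 8 mice 0 of the 18 were called, and in the wider fit 3 were, against 0.656% of all genes: Pdia4, Pdia6 and Manf, all lower in DRF. Pdia4, a disulfide isomerase, stood at 60.04, 65.6, 52.0 and 57.5 CPM in DRF and at 77.4, 75.5, 76.4 and 77.5 CPM in NRF. The 4 NRF values lay close together and above every DRF value (difference -0.38, SE 0.06, adjusted p = 0.00315 in the wider fit). Manf, a secreted stress protein, stood at 59.2, 53.5, 46.7 and 56.7 CPM in DRF and at 72.5, 69.96, 63.2 and 68.4 CPM in NRF. Hspa5, the main HSP70 of this compartment, was at 442 ± 23.3 CPM in DRF and 523 ± 27.3 CPM in NRF (difference -0.24), and Xbp1, a transcription factor of the unfolded protein response, had a difference of -0.21, neither called. Leaving out any single mouse left all 19 heat shock members and all 18 endoplasmic reticulum members below 0, with medians of -0.27 to -0.22 and of -0.22 to -0.18. The number called in the wider fit then ranged from 0 (without NRF replicate 1) to 6 heat shock genes and from 1 to 5 endoplasmic reticulum genes. Without DRF replicate 2, the 8-mouse fit called 13 of the 19 and 12 of the 18. In the wider fit all 5 heat shock calls were lost without NRF replicate 1. Those of Dnajb1, Ahsa1, Fkbp4 and Stip1, and of Pdia6 and Manf, were lost also without DRF replicate 3 or NRF replicate 2, those of Dnajb1 and Fkbp4 without DRF replicate 2 and that of Ahsa1 without DRF replicate 4. Pdia6 and Manf were lost without NRF replicate 1 too, and Pdia4 was called whichever mouse was left out.

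**Figure D3:**
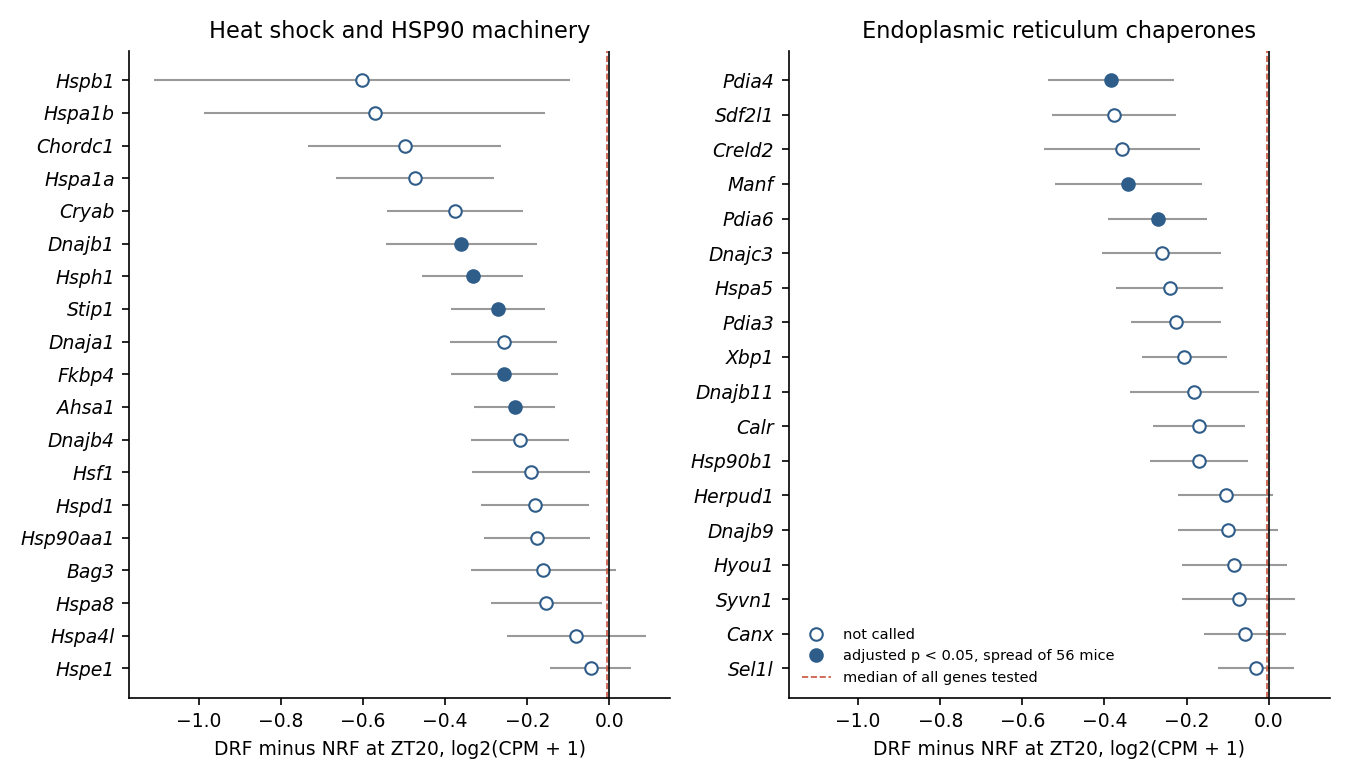
DRF minus NRF difference at ZT20 on the log2(CPM + 1) scale (points) with its 95% confidence interval from the 8-mouse fit (lines) for 19 heat shock and 18 endoplasmic reticulum genes. The lines use the degrees of freedom of the 8 mice alone and so are wider than the moderated test would give. Filled points are called with the spread of 56 mice (5 and 3), the dashed line is the median of all genes, and every point lies below 0.

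P4ha2 and Serpinh1, which act in collagen processing, were lower in DRF, and so were single genes of blood vessels. P4ha2, a prolyl hydroxylase of collagen, stood at 19.7, 18.1, 18.2 and 17.5 CPM in DRF and at 25.2, 26.6, 24.8 and 25.3 CPM in NRF. The groups did not overlap, and the difference of -0.45 (SE 0.05) was called in both fits (limma adjusted p = 0.0207 and 0.0024). With the 8 mice this call was lost without DRF replicate 3 or 4 and without any single NRF mouse, and it held in all 8 such fits with the spread of 56 mice. Serpinh1, the collagen chaperone HSP47, stood at 19.9, 21.9, 16.7 and 21.3 CPM in DRF and at 30.1, 30.4, 26.9 and 39.0 CPM in NRF (difference -0.63, adjusted p = 0.0873 with 8 mice and 0.000792 in the wider fit). Its highest value belonged to NRF replicate 4, the mouse with the most pericyte and meningeal RNA, while the other 3 NRF mice were still above all DRF mice. The endothelial genes Cd93 (-0.48), Emcn (-0.41), Eng (-0.32) and Vcam1 (-0.36) were called lower in the wider fit and not with the 8 mice, and Cd93, Eng and Vcam1 were on no list. The call of Cd93 held without any single mouse. That of Emcn was lost without DRF replicate 3 or NRF replicate 1, and that of Vcam1 without DRF replicate 2 or 3 or NRF replicate 1, 2 or 4 (adjusted p up to 0.137). That of Eng was lost on leaving out any single mouse other than DRF replicate 2 (adjusted p up to 0.118). Of 8 endothelial markers, 7 had a difference below 0 and 1, Emcn, was called, against 0.656% of all genes called lower in the wider fit. The summed level of the 8 markers overlapped between the groups (196 to 227 CPM in DRF, 213 to 238 CPM in NRF, exact permutation p = 0.229). The summed level of pericyte and meningeal markers was 184 to 207 CPM in DRF and 192 to 370 CPM in NRF. In whole tissue, fewer cells of a type and less RNA per cell cannot be told apart, and the part of vessel content in these differences was not tested. The integrin Itga10 (-0.56), the secreted protein gene Gkn3 (-0.61) and the phospholipase Pla2g4a (-0.55) were further genes called lower in the wider fit, at means of 2.02 to 4.56 CPM in DRF. The calls were lost without DRF replicate 3 for all of them. They were also lost without NRF replicate 4 for Itga10, without DRF replicate 4 or NRF replicate 1 for Pla2g4a, and without DRF replicate 2 or 4 or NRF replicate 1, 3 or 4 for Gkn3 (adjusted p up to 0.182).

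Of the 7 genes called with the 8 mice, 3 were not called in the wider fit. Scn7a, a sodium channel that senses salt, stood at 14.2, 12.5, 12.7 and 15.05 CPM in DRF and at 19.4, 21.8, 23.1 and 24.8 CPM in NRF (difference -0.67, SE 0.09, adjusted p = 0.0317 with 8 mice and 0.231 in the wider fit). Its call with the 8 mice was lost without DRF replicate 1 or 3 or NRF replicate 2, 3 or 4. It was the single member of 40 voltage-gated channels called with the 8 mice, and Cacna1d, a calcium channel, was the single member called in the wider fit (0.21), a call lost without DRF replicate 1 or 3 or NRF replicate 1, 2 or 4. Of all genes, 0.0271% were called lower with the 8 mice and 0.595% higher in the wider fit. Fndc3c1 on chromosome X stood at 0.354, 0.88, 0.663 and 0.388 CPM in DRF and at 2.40, 2.69, 3.07 and 3.88 CPM in NRF (difference -1.35, SE 0.14, adjusted p = 0.00892 and 0.223). Its SD reached 2.88 CPM in the other groups, in DRF at ZT24, against 0.248 CPM in DRF and 0.64 CPM in NRF at ZT20. Gdf1, a growth factor of the TGF-beta family, stood at 39.6, 31.3, 27.2 and 12.1 CPM in DRF and at 0.00263, 0.00263, 0 and 0.0762 CPM in NRF (difference 4.69, adjusted p = 0.000164 and 0.0833). Gdf1 shares its locus with Cers1, a ceramide synthase (chromosome 8, 70315775 to 70331592), and reads can be divided between them. Cers1 was at 74.5, 64.3, 75.9 and 103 CPM in DRF and at 106, 99.4, 109 and 99.9 CPM in NRF, and the sum of the pair was 107 ± 9.22 CPM in DRF and 104 ± 4.65 CPM in NRF (exact permutation p = 0.543, two-sided). The sum differed by less than its spread between mice, and no fold is given for Gdf1. Within other groups Gdf1 ranged widely between mice, from 0.000318 to 61.4 CPM in NRF at ZT8 and from 0.0121 to 49.9 CPM in DRF at ZT4. At ZT16 its difference had the opposite sign (-3.40), with means of 0.0138 CPM in DRF and 17.6 CPM in NRF.

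A few transcripts of lipid and amino acid metabolism were higher in DRF. Plin4, a lipid droplet protein and glucocorticoid target, stood at 14.99, 26.2, 40.4 and 11.7 CPM in DRF and at 7.84, 7.26, 9.62 and 5.49 CPM in NRF. All DRF mice were above all NRF mice, with a wide spread in DRF (difference 1.38, SE 0.32, adjusted p = 0.131 with 8 mice and 0.00936 in the wider fit). The call was lost without DRF replicate 3, its highest mouse. It was the single member called among 14 glucocorticoid targets, against 0.595% of all genes called higher in the wider fit. Of the 14 targets, 12 lay above 0 with a median of 0.22. At ZT8, where the feeding state is reversed, 13 of them lay above 0, with a median of 0.12. Sgk1 (34.7, 74.7, 71.1 and 39.5 CPM in DRF, 34.4, 33.0, 38.3 and 40.3 CPM in NRF) and Fkbp5 (difference 0.25) overlapped between the groups. Among 21 genes of fatty acid oxidation and ketone use, Cpt1a, the gate of mitochondrial fatty acid entry, was higher (39.2 ± 2.06 CPM against 32.6 ± 1.83 CPM, difference 0.26, adjusted p = 0.00216 in the wider fit), and Acadm, a medium-chain dehydrogenase, was at the threshold with overlapping groups (difference -0.17, adjusted p = 0.245 with 8 mice and 0.04995 in the wider fit). The Acadm call was lost without DRF replicate 1, 3 or 4 or NRF replicate 1, 2 or 4 (adjusted p up to 0.198). Acacb, which makes the malonyl-CoA that restrains Cpt1a, was the single member called of 29 genes of sterol and fatty acid synthesis, at 12.2, 12.1, 11.1 and 11 CPM in DRF and 7.91, 8.12, 8.54 and 8.46 CPM in NRF (difference 0.44, adjusted p = 0.0624 with 8 mice and 0.0016 in the wider fit). Prodh, the first enzyme of proline breakdown, and Mccc2, of leucine breakdown, were the 2 called of 26 genes of amino acid breakdown (0.43 and 0.19). The mitochondrial carrier Slc25a34 (0.65), the lysophospholipase Pnpla7 (0.64) and Etnppl, an astrocyte phospholyase (0.37), were higher as well. The calls of Mccc2 and Etnppl were lost without DRF replicate 3 or NRF replicate 1 or 3. Hr, a corepressor induced by thyroid hormone, stood at 69.0, 48.7, 86.3 and 57.6 CPM in DRF and at 41.3, 35.5, 38.4 and 34.0 CPM in NRF and was the single called of 9 thyroid hormone genes (difference 0.77, adjusted p = 0.00286 in the wider fit). Beside the list counts given for Acacb, for Prodh with Mccc2 and for Hr, 0.595% of all genes were called higher in that fit.

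No gene of the circadian clock was called in either fit as set out above, though 4 of those given here were called under some alternatives. Of 19 clock genes given here, the DRF and NRF values of 4 did not overlap, against 8.58% of all genes. Arntl, the activator partner of Clock, stood at 31.6, 33.7, 32.1 and 33.0 CPM in DRF and at 37.4, 38.6, 35.8 and 37.1 CPM in NRF (difference -0.19, SE 0.04, adjusted p = 0.136). Per1 stood at 60.1, 60.5, 65.5 and 63.4 CPM in DRF and at 52.7, 46.8, 53.8 and 52.3 CPM in NRF (difference 0.28, adjusted p = 0.0958). Cry2 (0.17, adjusted p = 0.113) was higher and the nuclear receptor Rorb (-0.29, adjusted p = 0.219) lower without overlap. The closest to the threshold in the wider fit was the repressor Nfil3 (-0.27, adjusted p = 0.0501), which was called there without DRF replicate 4 or NRF replicate 4, with trends removed, with a replicate block and without the ZT16 mice (adjusted p down to 0.0192). Cry2 was called there with trends removed, with the block and without the ZT16 mice (down to 0.00519), and Arntl with trends removed and without the ZT16 mice (down to 0.0213). With the 8 mice Arntl, Per1 and Cry2 were called without DRF replicate 2 and with weights per mouse. Clock (-0.03), Npas2 (0.17), Rora (-0.17), Per2 (-0.09), Per3 (0.03), Cry1 (-0.07), Nr1d1 (0.16), Nr1d2 (-0.05), Bhlhe40 (-0.02), Bhlhe41 (-0.04), Ciart (0.18), Dbp (0.15), Tef (0.01) and Hlf (-0.16) overlapped between the groups. Npas2 stood at 30.9 CPM in DRF replicate 2 and at 12.3 to 14.8 CPM in the other DRF mice, and without that mouse its difference was -0.11.

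Other lists chosen for this tissue held few or no calls. Of 32 pathway lists, 19 had no member called in the wider fit and 2 had a member called with the 8 mice. Of 20 feeding peptides and receptors, 16 had a difference below 0, with a median of -0.19 and 0 called. The lowest difference was that of the orexin gene Hcrt (-0.50), which is also 1 of the 7 tuberal markers and stood at 18.9 CPM in DRF replicate 2 and at 136 to 249 CPM in the other DRF mice, and without that mouse the median of the list was 0.03. Npy1r, a receptor of neuropeptide Y, did not overlap (23.3, 21.2, 20.5 and 23.4 CPM in DRF, 29.7, 27.6, 25.8 and 31.8 CPM in NRF, adjusted p = 0.0549 in the wider fit). Of 22 immediate early genes 15 lay above 0 and all overlapped, and Egr3 was at 21.5 CPM in DRF replicate 2 against 3.56 to 7.96 CPM in the other DRF mice. Of 18 genes of insulin and fasting signalling 14 lay above 0 with a median of 0.10, and 0 were called. At ZT8, where the feeding state is reversed, 15 of them lay above 0 with a median of 0.09. The 75 genes of the respiratory chain had a median of 0.04, the 77 cytosolic ribosomal proteins of 0.04, the 42 proteasome genes of -0.05 and the 22 Hippo pathway genes of -0.03, with 0 called in each.

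The study sampled the same regimens at 6 other time points, which shows whether the contrast at ZT20 is shared. Against the mean difference at the other 6 time points, the ZT20 difference was distinct for 94 genes (0.636%), in a fit over 56 mice. These included Mt2 (1.26, adjusted p = 2.57e-08), H1f0 (0.38, 0.00191), Pdia4 (-0.47, 0.00191) and Serpinh1 (-0.64, 0.00282), where the first value is the ZT20 difference minus the mean of the others. Against single time points the count was 1 gene at ZT0 and 0 at ZT24, with 1203 and 524 genes at an unadjusted p-value under 0.05. It was 696 at ZT4, 214 at ZT8, 485 at ZT12 and 615 at ZT16. No mouse was sampled at more than 1 time point. Of the 185 genes called in the wider fit, 181 had the same sign at ZT0 and 175 at ZT24 (97.8% and 94.6%, against 61.1% and 63.6% of all genes). At ZT16, when DRF mice had likewise been without food since ZT12, 113 had the same sign (61.1%, against 53.8% of all genes). At ZT4 and ZT12, 137 and 136 of the 185 had the opposite sign (74.1% and 73.5%, against 49.5% and 51.7% of all genes).

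ZT8 is the mirror of ZT20 in feeding state: DRF mice had had access to food for 8 h and NRF mice had been without it for 8 h. In a fit on the 16 mice of both time points, the difference at ZT20 was distinct from that at ZT8 for 181 genes (1.22%), 65 in the upward and 116 in the downward direction. Without DRF replicate 2 the count was 913, and without each of the other 7 mice it was 74 to 134. Of the 185 genes, 66.5% had the opposite sign at ZT8 (against 49.7% of all genes). Mt2 had a mean of 77.4 ± 4.3 CPM in DRF and 135 ± 13.2 CPM in NRF at ZT8, the reverse of 161 ± 34.1 CPM and 66.4 ± 5.17 CPM at ZT20, and its change in the difference was 2.03 (adjusted p = 6.94e-06). H1f0 (0.64), H1f2 (1.11) and Mt1 (0.97) changed in the same direction. Of the heat shock genes 9 changed downward, among them Hsph1 (-0.47), Chordc1 (-0.78) and Hspa1a (-0.79), and of the endoplasmic reticulum genes 5, among them Pdia4 (-0.56) and Sdf2l1 (-0.60). At ZT8, 17 of the 19 heat shock genes and 13 of the 18 endoplasmic reticulum genes had a difference above 0. The clock genes Nr1d1 and Dbp were among the 181 genes, with an upward change (0.41, adjusted p = 0.0179, and 0.45, adjusted p = 0.0248).

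**Figure D4:**
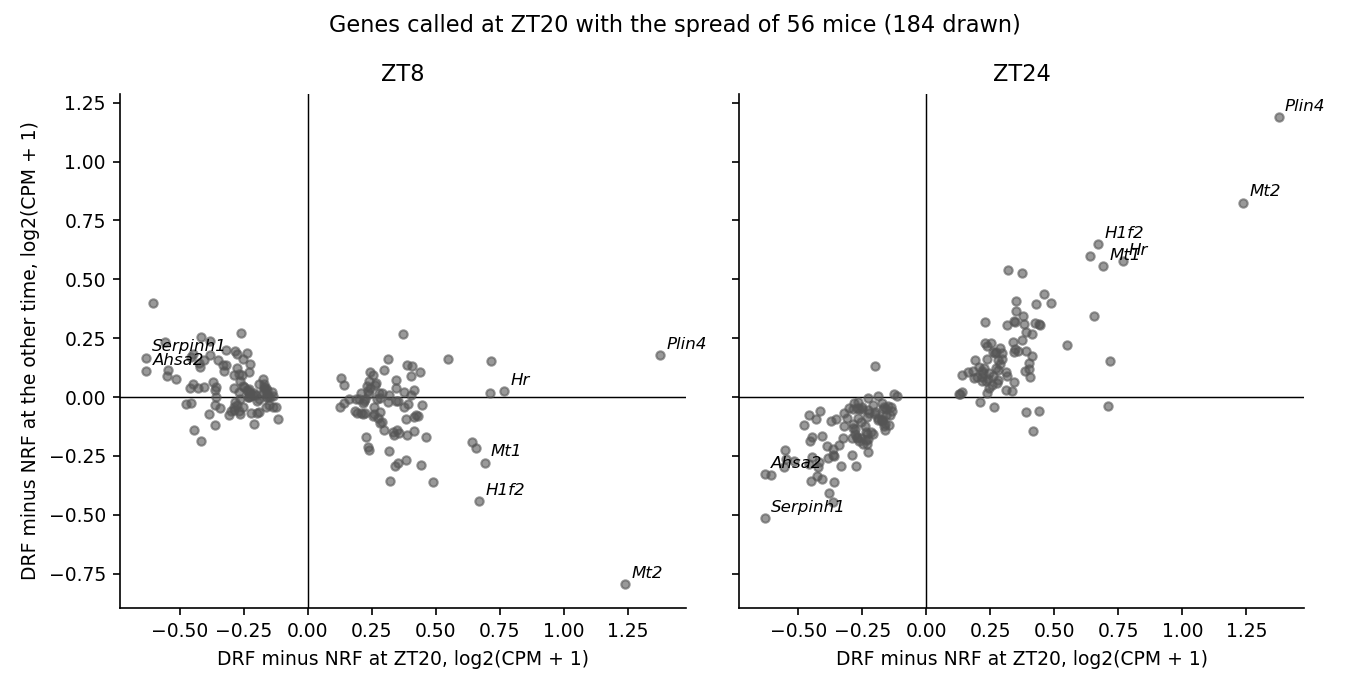
DRF minus NRF difference at ZT20 (horizontal) against that at ZT8 (left) and ZT24 (right) on the log2(CPM + 1) scale, for 184 of the 185 genes called with the spread of 56 mice (Gm14296, above 1.5, is not drawn). At ZT24 175 of the 185 keep their sign, and at ZT8 66.5% have the opposite sign.

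The group means over the day show where ZT20 lies within each regimen. In NRF, Mt2 was at its lowest group mean at ZT20 and at its highest at ZT8 and ZT12 (135 and 136 CPM), while in DRF its lowest means were at ZT4 and ZT8 (72.8 and 77.4 CPM) and its highest at ZT20. Hsph1 had its highest NRF mean at ZT20 (533 ± 31.9 CPM) and its lowest at ZT12 (290 ± 18.4 CPM), while in DRF it was highest at ZT16 (459 ± 34.8 CPM) and lowest at ZT0 (307 ± 20.2 CPM). Pdia4 in NRF was at 73.7 ± 5 CPM at ZT16 and at 76.7 ± 0.949 CPM at ZT20, values closer than their spread, whereas in DRF it was at 78.6 ± 4.7 CPM at ZT16 and at 58.8 ± 5.64 CPM at ZT20. These courses are given as group means, and their order was not tested.

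**Figure D5:**
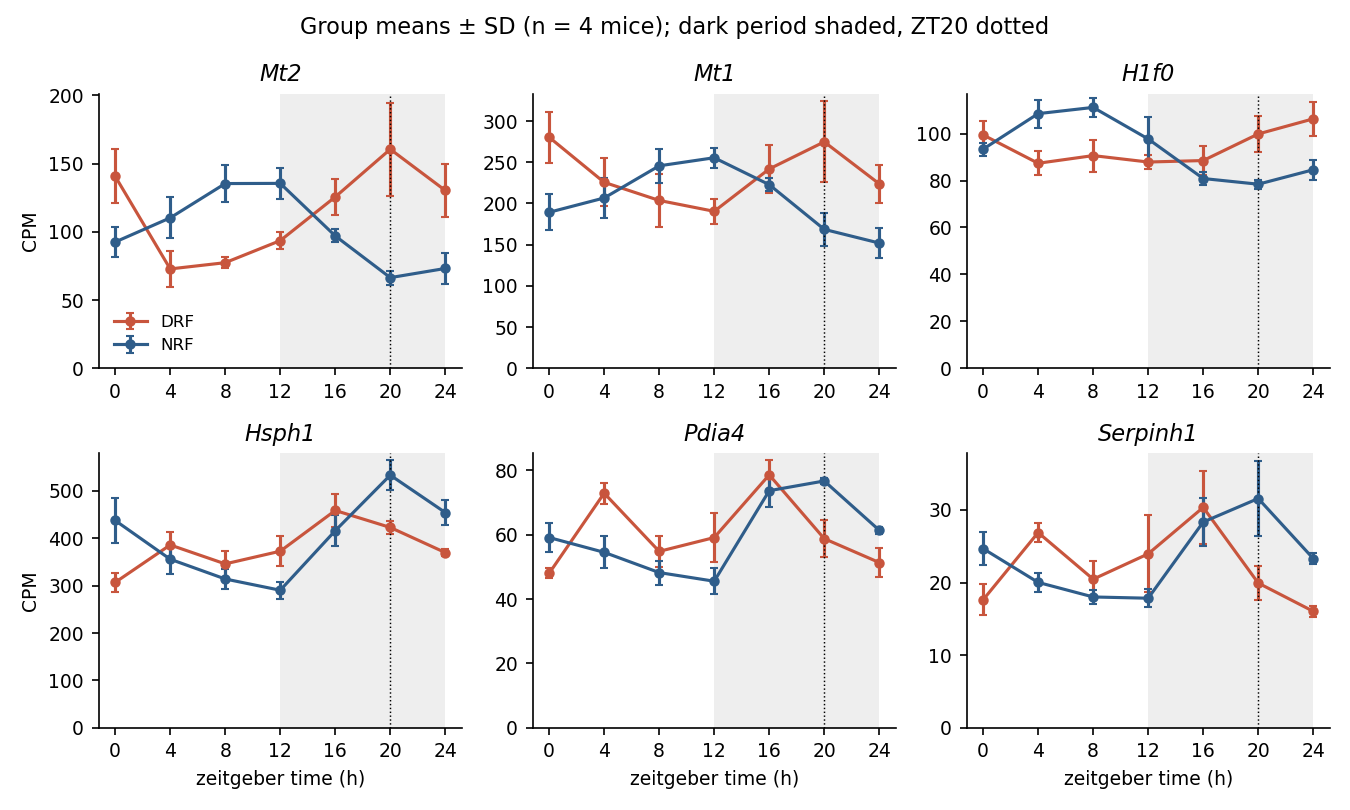
Group mean CPM ± SD (n = 4 mice) of 6 genes against zeitgeber time in hours in DRF and NRF, with the dark period shaded and ZT20 dotted. Mt2, Mt1 and H1f0 are higher in DRF at ZT20 and lower in DRF at ZT8, and Hsph1, Pdia4 and Serpinh1 are lower in DRF at ZT20 and not lower at ZT8.

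The summed markers of the striatum moved with the comparison, while those of the thalamus and the tuberal hypothalamus overlapped between the groups. All 6 striatal markers had a difference above 0 with a median of 0.57, their summed level did not overlap between the groups (exact permutation p = 0.0286, the smallest that 4 against 4 allows), and none of the 6 was called. At ZT8 all 6 lay above 0 as well, with a median of 0.49. Ppp1r1b, the striatal phosphoprotein DARPP-32, stood at 20.7, 113, 48.0 and 26.5 CPM in DRF and at 17.5, 18.5, 19.6 and 20.3 CPM in NRF. All 5 thalamic markers (median -0.44) and all 7 tuberal markers (median -0.29) had a difference below 0, with overlapping sums (exact permutation p = 0.257 and 0.771). The marker of glutamatergic neurons Slc17a6 was lower without overlap (-0.29) and that of GABAergic neurons Slc32a1 higher without overlap (0.28), neither called. Among the 8 neuronal markers 5 lay above 0 and 3 below. Without overlap 2 were higher and 1 lower, against 4.02% and 4.56% of all genes. The summed choroid plexus level was 46.5 to 63.3 CPM in DRF and 44.4 to 46.3 CPM in NRF (exact permutation p = 0.0286), and the summed levels of all other marker lists overlapped. Of the 5 choroid plexus markers tested, 3 had a difference above 0 and 2 below, with a median of 0.05. The 7 called genes kept their direction without DRF replicate 2, and Mt2, Ahsa2 and P4ha2 were called without it in both fits. Leaving out that mouse does not even out the striatal level, as the other DRF mice (164, 222 and 175 CPM) still lay above all NRF mice (151 to 156 CPM). The part of dissection in any of the differences, those of the 7 genes among them, was not tested.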

How the data were processed

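RNA sequencing of the anterior hypothalamus was compared between 4 DRF and 4 NRF mice at ZT20. The authors mapped reads with HISAT2 and Bowtie2 to GRCm38.p6, estimated counts with RSEM, normalized them by the trimmed mean of M-values in edgeR and deposited a value named TPM for 17564 genes. Tested on the values, this deposited score is log2(CPM + 1) divided by gene length and rescaled per mouse, so it is compressed and no count model was used. The logarithm was recovered for 17474 genes: 15498 lengths came from whole reads, 1398 from reads with 2 decimals and 578 from the annotation, and 90 genes had none. Genes with a mean log2(CPM + 1) of at least 0.5 over 56 mice (14786) were tested with limma 3.58.1 in R 4.3.3 (moderated by expression trend), with Benjamini-Hochberg adjustment at 0.05. The wider fit used 14 group means over 56 mice. The genes and lists were chosen with earlier results of these data known. The rule named called genes with a mean of at least 1 and no overlap, list members called, and all clock genes. The replicates are separate mice. Some genes, 1 of the 7 called with the 8 mice among them, are not reported here.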

Additional observations from a re-analysis of the deposited data

Results flagged for a closer look

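In 8 of 192 sets of 4 values, or 4.17%, 1 mouse lay far from the other 3, where chance gives about 1 in 20. In NRF these were Gdf1 at 0.0762 CPM, Itga10 at 8.82 CPM, the summed neuronal markers at 4508 CPM, the summed pericyte and meningeal markers at 370 CPM, and the correlation of NRF replicate 4 with its group mates at 0.994. In DRF these were Npas2 at 30.9 CPM, Pla2g4a at 3.29 CPM and the summed pituitary markers at 12.7 CPM.

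The DRF minus NRF difference at ZT20 differed from the mean of the other 6 time points for 94 genes, 26 of them among 74 genes looked at singly, by a test of the interaction. The change was upward in Mt2 (1.26), Hr (0.65), Utp14b (0.64), Mt1 (0.58), H1f2 (0.63), Pnpla7 (0.52), Cpt1a (0.25), Acacb (0.34), Srsf5 (0.29), Pspc1 (0.25), H1f0 (0.38) and Ewsr1 (0.19). It was downward in Ahsa2 (-0.57), P4ha2 (-0.48), Serpinh1 (-0.64), Itga10 (-0.70), Cd93 (-0.38), Trip10 (-0.52), Hsph1 (-0.32), Dnajb1 (-0.44), Fkbp4 (-0.28), Stip1 (-0.27), Pdia4 (-0.47), Pdia6 (-0.28), Manf (-0.33) and Hspa1a (-0.70). A low value was not particular to ZT20 for all heat shock genes named here. Hsph1, Stip1 and Fkbp4 were at least as low at ZT0 (-0.51, -0.47 and -0.30, against -0.33, -0.27 and -0.26 at ZT20). Dnajb1 and Hspa1a were less low at ZT0 (-0.21 and -0.28, against -0.36 and -0.47).

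Against ZT8 alone the difference changed for 181 genes, 33 of them among the same 74. The change was upward in Mt2 (2.03), Nr1d1 (0.41), Dbp (0.45), Mt1 (0.97), H1f2 (1.11), Slc25a34 (0.87), Pnpla7 (0.83), Prodh (0.51), Acacb (0.48), Pspc1 (0.45), H1f0 (0.64), Cirbp (0.56) and Ewsr1 (0.24). It was downward in Fndc3c1 (-2.40), Scn7a (-1.12), Ahsa2 (-0.74), P4ha2 (-0.50), Serpinh1 (-0.80), Gkn3 (-1.01), Itga10 (-0.79), Trip10 (-0.50), Hsph1 (-0.47), Ahsa1 (-0.26), Fkbp4 (-0.35), Stip1 (-0.29), Pdia4 (-0.56), Pdia6 (-0.37), Hspa1a (-0.79), Hspa1b (-1.10), Chordc1 (-0.78), Sdf2l1 (-0.60), Emcn (-0.57) and Eng (-0.52).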

How the results depend on the processing

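The counts of called genes moved more with the processing than the values did. With the 8 mice 7 genes were called, and leaving out 1 mouse gave 3 (without NRF replicate 3) to 332 (without DRF replicate 2). The count was 185 with the spread of 56 mice, 398 with weights per mouse, 21 with trends in gene length, GC content and expression removed, 11 after quantile normalization and 3 on the deposited scale, where Gdf1 was the gene shared. With the spread of 56 mice it was 49 without DRF replicate 3, 50 without NRF replicate 1, 68 without NRF replicate 2, 121 without NRF replicate 4, 525 with trends removed and 353 without the ZT16 mice. The 94 genes set against the other 6 time points became 24 to 84 with 1 mouse left out (24 without DRF replicate 3), 355 with trends removed, and against single times 1 (ZT0), 696 (ZT4), 214 (ZT8), 485 (ZT12), 615 (ZT16) and 0 (ZT24). The 181 genes set against ZT8 became 74 (without DRF replicate 3) to 913 (without DRF replicate 2) and 372 with trends removed. The causes were not tested. Fits with the spread of 56 mice under these settings were added after seeing the data.

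With a replicate block 2 genes were called, Gdf1 and Ahsa2, and 3 with the block and trends removed. The numbers do not pair the mice, whose same-number deviations correlated at -0.119 to 0.0488.

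Of 74 genes run under every alternative, 5 changed sign, clock genes called in neither fit. Clock was 0.044 without DRF replicate 1 (leave-one-out range -0.11 to 0.044). Npas2 was -0.074 with weights and -0.11 without DRF replicate 2 (range -0.11 to 0.31). Per3 was -0.0037 with trends removed, with or without the replicate block, and -0.021 without DRF replicate 1 (range -0.021 to 0.082). Bhlhe41 was 0.031 with weights and 0.0054 without DRF replicate 2 (range -0.11 to 0.0054). Tef was -0.0019 after quantile normalization, -0.0051 with trends removed, with or without the replicate block, -0.0037 with weights, -0.012 without DRF replicate 1 and -0.017 without NRF replicate 4 (range -0.017 to 0.026). Of the list medians, 29 values under the alternatives moved beyond the spread between mice and 611 did not.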
